A study of Mus musculus with 12 samples.

Results

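The receptors of the UNC5 family (Unc5a, Unc5b, Unc5c and Unc5d), the netrin receptors Dcc and Neo1, the ligand Ntn1 and the FLRT proteins (Flrt1, Flrt2 and Flrt3) were examined for acetylation of histone H3 at lysine 27 (H3K27ac), a mark of active promoters and enhancers. These 10 genes were chosen by name, as the receptors and ligands of 1 guidance system, out of 21887 protein-coding genes. Earlier results of these data, in which Unc5d had already appeared, were known when they were chosen. For each gene, the peaks and the bases under peaks were taken over its gene body with 20 kb added at either end, called its window below. H3K27ac had been mapped in whole cortex of E15.5 mouse embryos by native chromatin immunoprecipitation and sequencing (ChIP-seq), with digestion by micrococcal nuclease and antibody ab4729.

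The conditional knockout (cKO) group had 3 libraries of embryos with the genotype Emx1Ires-Cre; Prdm16 flox/flox, and the wild-type (WT) group had 3 libraries of Prdm16 flox/flox embryos, named without a Cre in the labels. The floxed allele was therefore shared by both groups. Prdm16 codes for a transcription factor with zinc fingers that acts on chromatin and is made in cortical progenitors. Emx1 drives Cre in progenitors of the dorsal forebrain and thus in their progeny, so cells of whole cortex that arise elsewhere, such as interneurons, vessels and microglia, should keep the allele in cKO embryos. A further 6 input libraries were not analysed here, and peak lists do not show whether the floxed part was deleted. Whether replicates are different embryos is not stated, and p-values thus speak of the spread among these libraries, part of which may be technical.

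Netrin-1 is a secreted, laminin-related cue for axons and migrating neurons. DCC and its relative neogenin mediate attraction to it, and UNC5 receptors, alone or together with DCC, mediate repulsion. FLRT proteins are transmembrane proteins with leucine-rich repeats that bind UNC5 receptors and latrophilins, and shed FLRT ectodomains repel neurons that carry UNC5 receptors. In the developing cortex, Unc5d is a known gene of the subventricular zone and of precursors of upper-layer neurons, Dcc is carried by callosal and other projection neurons, and FLRT proteins act in the migration of pyramidal neurons.

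Promoter sequences are shown for 4 members whose base composition differed. The start of each lay in a region, merged over the lists, that held an H3K27ac peak in all 6 libraries. A RefSeq promoter table (build GRCm38.p6, the same assembly as mm10) held 6 of the 10 members: Unc5a, Unc5b, Unc5c, Neo1, Flrt2 and Flrt3. The 250 bases before the annotated start of Unc5c, Neo1, Flrt2 and Flrt3 follow, read 5′ to 3′ on the strand of the gene, with each CG dinucleotide in capitals.
Unc5c (chr3:141465314-141465563, plus strand): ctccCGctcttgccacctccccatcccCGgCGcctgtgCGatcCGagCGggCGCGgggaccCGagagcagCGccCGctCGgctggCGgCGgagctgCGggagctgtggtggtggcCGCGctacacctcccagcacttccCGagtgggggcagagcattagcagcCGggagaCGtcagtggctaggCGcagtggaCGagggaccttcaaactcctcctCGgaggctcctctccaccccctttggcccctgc
Neo1 (chr9:59036442-59036691, minus strand): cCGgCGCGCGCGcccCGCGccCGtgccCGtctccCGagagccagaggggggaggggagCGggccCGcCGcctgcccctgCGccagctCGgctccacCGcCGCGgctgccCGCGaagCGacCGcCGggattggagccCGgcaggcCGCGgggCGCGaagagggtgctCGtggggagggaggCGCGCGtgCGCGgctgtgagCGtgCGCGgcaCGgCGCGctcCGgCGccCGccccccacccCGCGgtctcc
Flrt2 (chr12:95691976-95692225, plus strand): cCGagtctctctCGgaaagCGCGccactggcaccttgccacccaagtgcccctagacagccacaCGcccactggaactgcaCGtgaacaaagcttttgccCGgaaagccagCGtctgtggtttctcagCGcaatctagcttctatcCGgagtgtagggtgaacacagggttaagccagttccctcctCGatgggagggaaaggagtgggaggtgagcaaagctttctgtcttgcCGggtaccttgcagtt
Flrt3 (chr2:140671477-140671726, minus strand): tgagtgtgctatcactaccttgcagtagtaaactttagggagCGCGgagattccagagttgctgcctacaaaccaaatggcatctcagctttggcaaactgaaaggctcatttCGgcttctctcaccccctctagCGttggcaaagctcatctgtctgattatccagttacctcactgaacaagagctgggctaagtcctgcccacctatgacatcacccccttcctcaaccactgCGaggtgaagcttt
The motif CG, which reads the same on both strands, occurred 45 times in these 250 bases of Neo1 and 23 times in those of Unc5c, against 12 times in Flrt2 and 5 times in Flrt3. Over all 32851 promoters of the table the median was 6, the quartiles were 2 and 16, and 92.1% held at least 1 CG. Unc5a had 25 and Unc5b 27. The letters TATAAA, searched on both strands, were in none of the 6 promoters and in 12.4% of all promoters.

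The cKO lists held 55015 to 59209 peaks and the WT lists 48168 to 75563, and they covered 63.5 to 72.9 Mb in cKO and 53.9 to 92.1 Mb in WT. Peak lists carry no read counts, so depth is unknown. Unless said otherwise, all lengths and numbers below were therefore scaled to the same total in every list, and WT replicate 2 was the longest list and WT replicate 3 the shortest. Scaled lengths are thus not counts of bases, and in WT replicate 3 some exceed the length of their site. Library identifiers grouped replicates 1 and 2 of both genotypes and set replicate 3 of both apart. All 10 marker genes of dorsal cortex had peaks in their windows in all 6 lists, with a summed covered length of 253 to 273 kb in cKO and 226 to 299 kb in WT. In the windows of 4 microglial genes the sum was lower in each cKO library than in each WT library, at 7.44 to 8.16 kb in cKO and 8.61 to 9.38 kb in WT, and 2 of the 4 had a peak in every list. Cx3cr1, a chemokine receptor of microglia, accounted for much of that gap with 0, 270 and 0 bp in cKO replicates 1 to 3, against 1689, 1221 and 724 bp in WT replicates 1 to 3. Aif1 had the longest covered length of the 4, and its groups overlapped. It had 5791, 6755 and 7076 bp in cKO replicates 1 to 3, against 5084, 5539 and 7351 bp in WT replicates 1 to 3. Csf1r and P2ry12 overlapped as well. The sums for ventral forebrain and interneuron genes (106 to 117 kb in cKO, 85.2 to 118 kb in WT), vessels (11.3 to 12.7 kb in cKO, 9.34 to 13.6 kb in WT), meninges (7.31 to 7.58 kb in cKO, 7.34 to 8.07 kb in WT) and other organs (1.74 to 2.31 kb in cKO, 1.93 to 2.33 kb in WT) overlapped between the genotypes. Nkx2-1, Col3a1 and Alb had no peak in any list, and Myod1, a muscle gene, had one.

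The windows differed widely in how much of them was acetylated. The share of the window under peaks was highest at Flrt1, with 30.6 ± 1.17% in cKO and 31.9 ± 2.38% in WT (SD, n = 3 each), a mean above 99.0% of all genes tested. Flrt1 lies inside Macrod1, so this share belongs to both genes. Flrt3, itself inside Macrod2, had 12.7 ± 1.04% in cKO and 12.8 ± 2.78% in WT. Unc5a followed with 9.22 ± 1.71% in cKO and 10.5 ± 1.78% in WT, Flrt2 with 9.70 ± 0.244% in cKO and 8.79 ± 0.241% in WT, and Unc5b with 6.01 ± 0.213% in cKO and 5.94 ± 0.661% in WT. Flrt3, Unc5a and Flrt2 were neighbours whose values overlapped in this order. The lower places were held by genes with long bodies. Ntn1 had 3.40 ± 0.447% in cKO and 3.03 ± 0.546% in WT, and Unc5d had 1.62 ± 0.298% in cKO and 2.54 ± 0.315% in WT. Dcc had 1.97 ± 0.121% in cKO and 1.97 ± 0.128% in WT, Neo1 had 1.45 ± 0.177% in cKO and 1.37 ± 0.270% in WT, and Unc5c had 0.865 ± 0.135% in cKO and 0.796 ± 0.0407% in WT. Unc5c lay above only 1.22% of all genes tested, whose quartiles were 3.31% and 9.25%. In cKO lists Unc5d ranked below Dcc, and in WT lists above it.

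**Figure D1:**
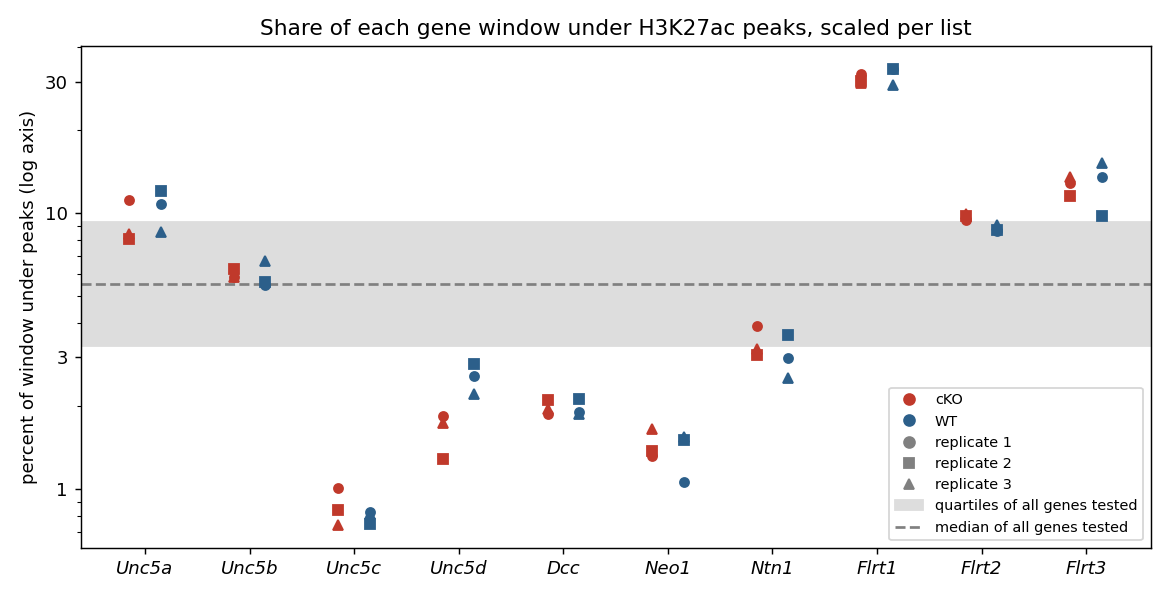
Share of each gene window (gene body and 20 kb at either end) under H3K27ac peaks, in percent on a log axis, with cKO libraries left in red and WT libraries right in blue, 1 symbol per replicate. The grey band spans the quartiles of all genes tested, 3.31% to 9.25%, and Unc5d is the member whose cKO and WT symbols separate most.

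The main question was whether the covered length of these windows differed between cKO and WT cortex. None of the 10 members passed the test (limma on log2 of scaled covered length plus 500 bp, Benjamini-Hochberg adjusted p below 0.05 over 15359 genes), where 0.69% of all genes tested passed, 0.371% as higher and 0.319% as lower in cKO. At an unadjusted p below 0.05 there was 1 member, Unc5d, against 9.95% of all genes. Of the 10 log2 differences, 7 were positive and 3 negative, with a median of 0.01, and the median over all genes tested was 0.05. Without scaling, those of Unc5b, Unc5c, Dcc, Neo1 and Flrt3 turned negative. In 2 members the cKO and WT libraries did not overlap: Flrt2 was higher in cKO, as were 7.08% of all genes tested, and Unc5d was lower, as were 4.54%. By unscaled covered length the groups overlapped in both genes. By number of peaks, 0 of the 9 members tested passed, where 0.274% of all genes did (0.157% higher and 0.118% lower in cKO), and 2 had an unadjusted p below 0.05, Unc5d and Flrt2, against 8.15% of all genes. In both, the cKO libraries were lower than the WT libraries without overlap, as in 4.39% of all genes, and no member was higher without overlap, as 6.98% were. Because of the added 500 bp, log2 differences understate the change of short covered lengths. In whole cortex, fewer cells with the mark and less acetylation per cell cannot be told apart.

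**Figure D2:**
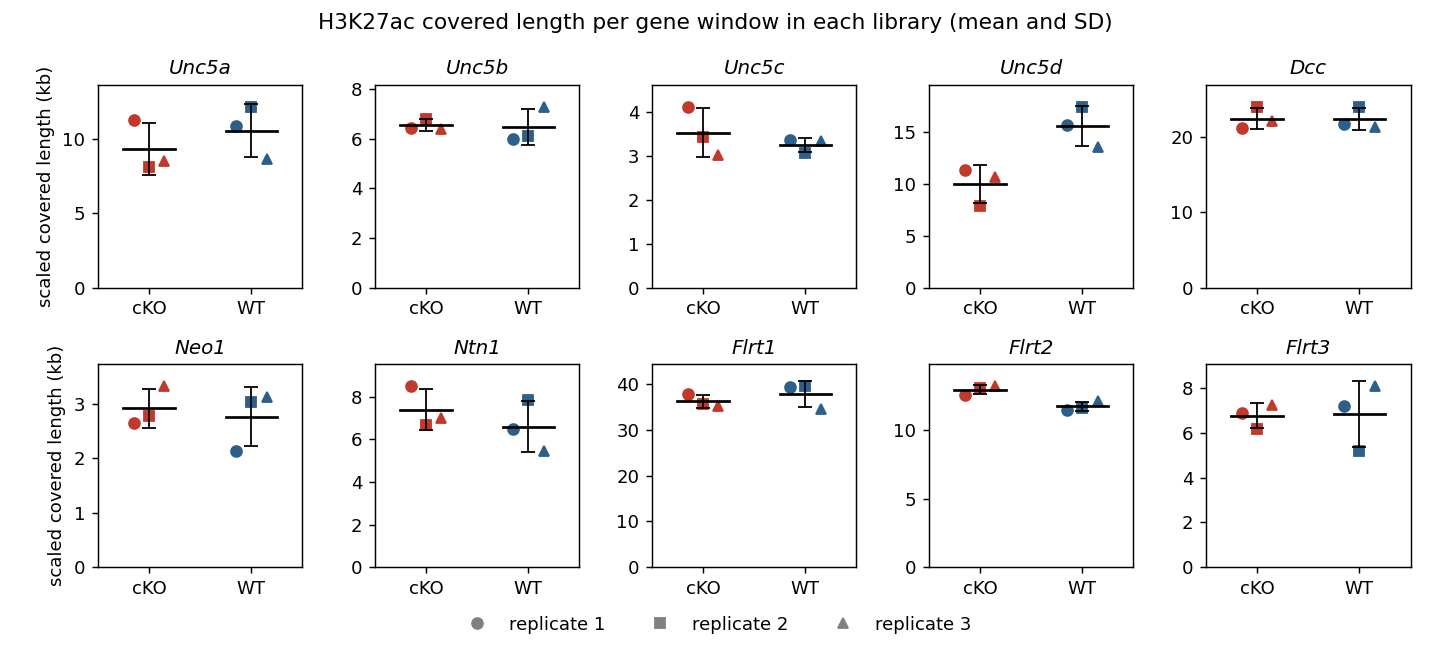
Scaled covered length of each window in kb, with cKO libraries left in red and WT libraries right in blue, 1 symbol per replicate, bars for the mean and SD (n = 3). In Unc5d all 3 cKO libraries lie below all 3 WT libraries, in Flrt2 they lie above, and in the other 8 windows the groups overlap.

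Ntn1 (chr11:68209364-68386826), the ligand, had a covered length of 8502, 6680 and 7007 bp in cKO replicates 1 to 3, against 6480, 7843 and 5477 bp in WT replicates 1 to 3. The groups overlapped, and the log2 difference was 0.16 ± 0.13 (SE, limma adjusted p = 0.756). Leaving out 1 library gave 0.08 to 0.28, and peaks past a -log10 q of 5 gave 0.65 (limma adjusted p = 0.446). The window also contains part of Stx8. Of its 10 merged sites (regions formed from peaks of the 6 lists that overlap or touch), 6 had a peak in all 6 lists (60%, against 46.4% of all sites). The site over the high-coordinate end of the gene (chr11:68385339-68387631) was the longest and held 2263, 1625 and 1588 bp in cKO, against 1253, 1766 and 1226 bp in WT. Shorter sites inside the gene went both ways. A pair of them was higher in every cKO library than in every WT library, as were 7.98% of all sites tested. The first (chr11:68229021-68229964) had 942, 683 and 699 bp in cKO, against 561, 461 and 514 bp in WT, and the other (chr11:68273826-68274740) had 904, 771 and 711 bp in cKO, against 525, 589 and 470 bp in WT. Both had a log2 difference of 0.51 on the scale of log2 covered length plus 100 bp, and neither passed the test over all 55985 sites (limma adjusted p = 0.517 and 0.462). The site chr11:68214743-68216523 had 569, 0 and 0 bp in cKO, against 845, 1407 and 462 bp in WT, with a log2 difference of -2.30 ± 0.78 and overlapping groups (SE, limma adjusted p = 0.503).

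Dcc (chr18:71253613-72351228), the attractive netrin receptor, had the longest body of the 10 genes and 40 sites. Its covered length was 21242, 23958 and 22180 bp in cKO replicates 1 to 3, against 21696, 24034 and 21349 bp in WT replicates 1 to 3. These values overlapped almost fully, with a log2 difference of 0.01 ± 0.11 (SE, limma adjusted p = 0.986, 95% interval -0.24 to 0.25). The site over the high-coordinate end of the gene (chr18:72345701-72351735), with 5271, 5352 and 5647 bp in cKO, against 5272, 4027 and 6579 bp in WT, was the longest. The 13 sites in all 6 lists (32.5%, against 46.4% of all sites) ranged from 686 kb below that end up to the end itself, and all but 1 of them lay in the last 376 kb.

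Single sites of Dcc moved in both directions around this near-equal total. There were 10 sites with a peak in WT lists only (25% of its sites, against 21.8% of all sites), which added up to 1974 ± 713 bp per WT list (SD, n = 3). A further 17 sites were in 1 to 5 lists with at least 1 cKO list, and added up to 5053 ± 1129 bp in cKO and 2980 ± 2729 bp in WT. Of these, 5 were in cKO lists only (12.5% of its sites, against 6.18% of all sites). The site chr18:71770494-71771576, 580 kb below the high-coordinate end, had no peak in any cKO list and 454, 404 and 1187 bp in WT replicates 1 to 3. It passed the test over all sites (limma adjusted p = 0.0460), which it entered through its WT values alone, so that it had to differ. The authors' -log10 q of its peaks was low, at 2.00, 3.14 and 2.44 in the WT lists. In lists cut to equal length it remained in 1 WT list, and past a -log10 q of 5 in none. A site inside the gene (chr18:71986542-71987439) went the other way, with 675, 923 and 555 bp in cKO, against 487, 408 and 436 bp in WT, and did not pass (log2 difference 0.57, limma adjusted p = 0.507).

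Neo1 (chr9:58874679-59036614), which encodes neogenin, a receptor for netrins and for repulsive guidance molecules, had 2661, 2781 and 3331 bp in cKO replicates 1 to 3, against 2143, 3041 and 3126 bp in WT replicates 1 to 3 (log2 difference 0.08 ± 0.13, SE, limma adjusted p = 0.882). Most of it was 1 site over the start whose sequence is printed above (chr9:59035273-59037739), which made up 91.1%, 87.3% and 80.4% of the covered length in cKO replicates 1 to 3, against 100%, 64.1% and 100% in WT replicates 1 to 3. The authors' -log10 q there was 50.7, 59.0 and 39.5 in cKO lists and 44.0, 52.9 and 38.2 in WT lists. Ranked by p within each list, these peaks were in the top 0.81% to 2.06%. Of the 6 members in the promoter table, Neo1 had the most CG.

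Among the UNC5 receptors, the covered lengths of Unc5a, Unc5b and Unc5c overlapped between the genotypes. Unc5a (chr13:54945151-55006018) had 11280, 8103 and 8511 bp in cKO replicates 1 to 3, against 10855, 12154 and 8614 bp in WT replicates 1 to 3 (log2 difference -0.17 ± 0.13, SE, limma adjusted p = 0.742; -0.28 to -0.02 without 1 library). The site over its start (chr13:54947434-54950566) held 2981, 2607 and 2471 bp in cKO, against 2577, 2460 and 2761 bp in WT. Away from the start, a pair of Unc5a sites moved in opposite directions, and neither passed the test. The site chr13:54967352-54968070 had 487, 705 and 476 bp in cKO, against 0, 273 and 0 bp in WT (limma adjusted p = 0.434). The site chr13:55000163-55001364 had 0, 0 and 331 bp in cKO, against 1050, 899 and 485 bp in WT (limma adjusted p = 0.441).

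Unc5b (chr10:60762594-60831581) had 6423, 6820 and 6414 bp in cKO replicates 1 to 3, against 5999, 6115 and 7300 bp in WT replicates 1 to 3 (log2 difference 0.02 ± 0.11, SE, limma adjusted p = 0.961). The site over its start (chr10:60830544-60832059) had a peak in all 6 lists, and 2 sites inside the gene did not overlap between the genotypes. The site chr10:60794317-60795172 was lower in every cKO library, as at 5.79% of all sites tested, with 0, 262 and 0 bp in cKO, against 677, 384 and 677 bp in WT (limma adjusted p = 0.477). The site chr10:60826426-60827593 was higher, as at 7.98% of all sites tested, with 826, 1012 and 841 bp in cKO, against 605, 621 and 794 bp in WT (limma adjusted p = 0.594). Unc5c (chr3:141465564-141834924) had 4133, 3447 and 3038 bp in cKO, against 3371, 3068 and 3339 bp in WT (log2 difference 0.10 ± 0.12, SE, limma adjusted p = 0.854). It had only 4 sites, of which the one over the start printed above (chr3:141464641-141466494) was the longest and held 37.3% to 47.3% of the covered length. The groups overlapped at all 4. The windows of Unc5a, Unc5b and Unc5c also contain parts of Hk3, Slc29a3 and Bmpr1b.

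Unc5d (chr8:28646717-29219671) was the member with the lowest p by covered length. Its covered length was 11313, 7879 and 10677 bp in cKO replicates 1 to 3, against 15703, 17421 and 13564 bp in WT replicates 1 to 3. Every cKO library was lower than every WT library, with means of 9957 ± 1827 bp in cKO and 15563 ± 1932 bp in WT (SD, n = 3 each). Unscaled, cKO replicate 1 (11335 bp) lay above WT replicate 3 (10045 bp). The log2 difference was -0.63 ± 0.15 (SE, 95% interval -0.95 to -0.31), which 0.443% of all genes tested fell below, and the adjusted p was 0.0855 (limma, unadjusted p = 0.00098), so that it missed the threshold. Because Unc5d had appeared in earlier results of these data, its rank and p are not those of a fresh test. Within the first library identifier the means were 9596 bp in cKO and 16562 bp in WT, and within the second the single libraries had 10677 bp in cKO and 13564 bp in WT. The number of peaks pointed the same way, with 11, 9 and 10 in cKO lists, against 17, 21 and 12 in WT lists. Scaled, these were 10.5 ± 1.07 peaks in cKO and 15.8 ± 0.913 in WT (SD, n = 3 each), with a log2 difference of -0.57 ± 0.16 (SE, limma adjusted p = 0.161). No other protein-coding gene lies in the window. Microglial sums, given above, were also lower in cKO, and their part in the Unc5d difference was not tested. Within each genotype, 3 libraries are too few to say whether these sums followed Unc5d. Counting only peaks past a -log10 q of 5, the log2 difference in covered length was -0.07 (limma adjusted p = 0.963). Leaving out 1 library gave -0.78 to -0.44, and it passed the test without cKO replicate 1 (limma adjusted p = 0.00699).

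**Figure D3:**
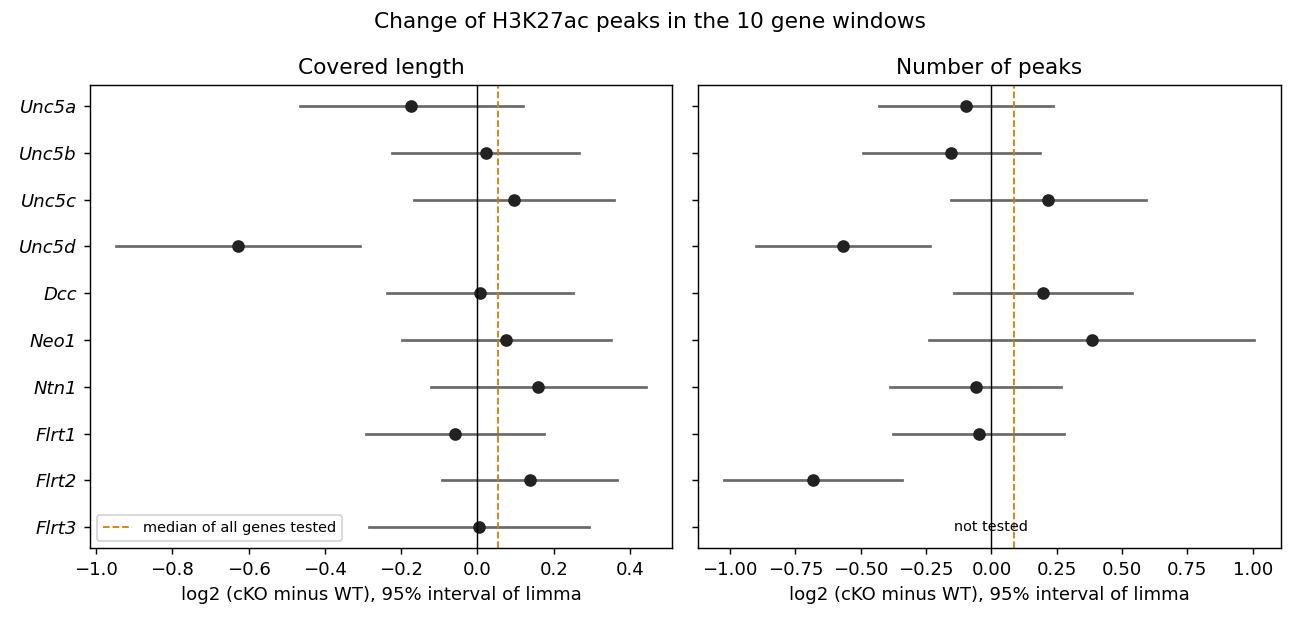
Log2 difference (cKO minus WT) of scaled covered length and of scaled peak number in each window, with the 95% interval of limma. The dashed line marks the median of all genes tested, 0.05 for covered length and 0.09 for peak number. Unc5d lies at -0.63 and -0.57, Flrt2 at 0.14 and -0.68, and Flrt3 was not tested by peak number.

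The 22 sites of Unc5d all lay inside the gene, and none passed the test over all sites, where 0.995% of all sites tested passed. Those at an unadjusted p below 0.05 were 3 of the 11 tested, against 9.5% of all sites. The table of genes used gives no exons and no strand for Unc5d, so sites are placed by their distance below the high-coordinate end. There were 9 sites in all 6 lists, 11 in WT lists only and 0 in cKO lists only. Over the whole genome, 46.4% of sites were in all 6 lists, 21.8% in WT lists only and 6.18% in cKO lists only. Of the 8 sites in a single list, 6 came from WT replicate 2, the longest list.

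The site with the highest -log10 q lay over the high-coordinate end of Unc5d (chr8:29215846-29220086), and its covered length overlapped between the genotypes. It held 3437, 3144 and 3414 bp in cKO replicates 1 to 3, against 3705, 3139 and 4279 bp in WT replicates 1 to 3 (log2 difference -0.14 ± 0.16, SE, limma adjusted p = 0.817). The authors' -log10 q there was lower in every cKO list, at 21.1, 19.1 and 17.4 in cKO lists and 28.7, 32.7 and 22.6 in WT lists. Their fold ratio was lower too, at 10.5, 9.10 and 8.72 in cKO lists and 12.2, 12.3 and 11.0 in WT lists. Ranked by p within each list, this peak was in the top 15.9%, 17.4% and 18.8% in cKO, against 6.96%, 5.79% and 11.8% in WT. The share of all sites with such a pattern was not counted. Depth is unknown, so these values describe each list and do not measure a genotype difference. The larger differences in covered length lay inside the gene. Summed over the other 8 sites in all 6 lists, the covered length was 6129 ± 1221 bp in cKO and 8778 ± 640 bp in WT (SD, n = 3 each), a mean difference of -2649 bp with no overlap. The pair of sites in some lists of both genotypes held 496 ± 446 bp in cKO and 1517 ± 772 bp in WT. At the end of the gene the mean difference was -376 bp. The 11 sites in WT lists only, which by definition hold nothing in cKO, held 1260, 2935 and 486 bp in WT replicates 1 to 3, a mean of 1560 bp that was 873 bp without WT replicate 2.

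The first cluster next to this end lay 97.5 to 157 kb below it. At chr8:29077391-29079768, cKO replicates 1 to 3 had 524, 0 and 625 bp, against 1016, 1879 and 752 bp in WT replicates 1 to 3. At chr8:29073550-29075729 they had 297, 180 and 181 bp in cKO, against 1648, 624 and 776 bp in WT. Every cKO library was below every WT library at both sites, as at 5.79% of all sites tested. The second had a log2 difference of -1.72 ± 0.39 (SE, limma adjusted p = 0.329), and the first had an adjusted p of 0.610 (limma). Next to them, chr8:29088491-29088945 was listed at 0 in all cKO libraries and had 345, 327 and 0 bp in WT. The remaining sites of this cluster were seen in 1 WT list each: chr8:29062834-29063005 in WT replicate 1, chr8:29121681-29122057 in WT replicate 2 and chr8:29122115-29122305 in WT replicate 3.

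No peak of any list fell between this cluster and the next, which began 339 kb below the end with the 1 Unc5d site that was higher in every cKO library, as at 7.98% of all sites tested. There (chr8:28880197-28881402) the covered length was 946, 919 and 1055 bp in cKO replicates 1 to 3, against 660, 492 and 444 bp in WT replicates 1 to 3 (log2 difference 0.78 ± 0.19, SE, limma adjusted p = 0.370). At its neighbours the groups overlapped. The site chr8:28870944-28872600 had 906, 964 and 849 bp in cKO, against 1292, 1285 and 762 bp in WT, and chr8:28829581-28830810 had 1172, 906 and 1082 bp in cKO, against 936, 774 and 851 bp in WT. They overlapped also at chr8:28769923-28771258, with 986, 825 and 1305 bp in cKO, against 1115, 975 and 1296 bp in WT, and a -log10 q of 9.96 to 11.7 over the 6 lists. Together with the site at the end of the gene and the 1 higher in cKO, the last 2 of these were the 4 sites with a -log10 q of at least 5 in all 6 lists.

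The sites that differed by more in this stretch were long and of low -log10 q. The site chr8:28819455-28823043 had 1946, 250 and 893 bp in cKO replicates 1 to 3, against 1432, 2581 and 2501 bp in WT replicates 1 to 3, with a -log10 q of 2.53 to 3.69 and overlapping groups (limma adjusted p = 0.642). The site chr8:28743568-28746023, 475 kb below the end, had 225, 293 and 725 bp in cKO, against 1623, 1940 and 990 bp in WT. Its groups did not overlap, and it did not pass the test (log2 difference -1.73 ± 0.47, SE, limma adjusted p = 0.427). The -log10 q there was 3.00, 2.53 and 2.21 in cKO lists and 2.92, 2.43 and 2.12 in WT lists. A peak was thus called there in every library, and it was wider in WT.

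Farther down, chr8:28712716-28713390 was the 1 Unc5d site with a peak in all WT lists and no cKO list. It was listed at 0 in cKO and had 472, 475 and 228 bp in WT replicates 1 to 3, with a -log10 q of 2.36, 3.14 and 4.03. Its mean over the 6 lists was under the 200 bp needed for the test. In lists cut to equal length it remained in 1 WT list, and past a -log10 q of 5 in none. The site chr8:28703077-28703716 had 339, 0 and 0 bp in cKO, against 485, 418 and 0 bp in WT, and chr8:28682788-28683395 had 534, 400 and 549 bp in cKO, against 531, 378 and 427 bp in WT. Those left were in WT lists only. The site chr8:28752254-28752662 had 293, 199 and 0 bp in WT replicates 1 to 3, and chr8:28661564-28661756, chr8:28775625-28776104, chr8:28808608-28808980, chr8:28845330-28845828 and chr8:28853692-28854217 were in WT replicate 2 alone.

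**Figure D4:**
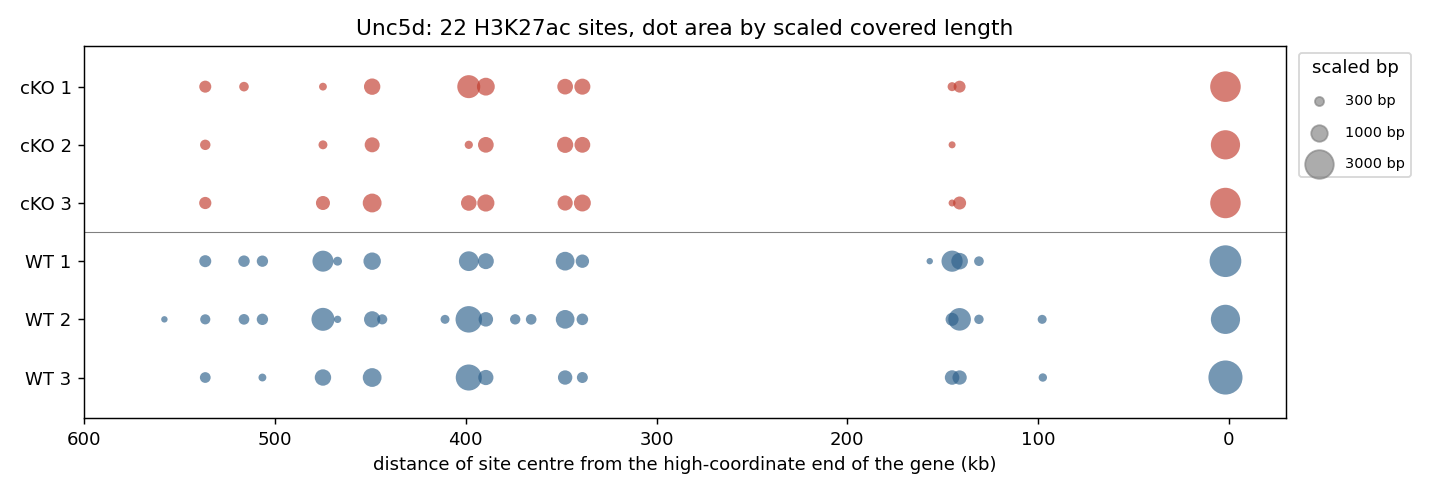
The 22 sites of Unc5d by distance of the site's centre below the high-coordinate end of the gene in kb, with the 3 cKO libraries above and the 3 WT libraries below. Dot area is proportional to scaled covered length in bp, and a missing dot means no peak. The site at the end is of like size in all 6 rows, and the dots at 475, 145 and 141 kb are smaller or missing in cKO.

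Among the FLRT genes, the genotypes overlapped at Flrt1 and Flrt3 and not at Flrt2. Flrt1 (chr19:7087464-7166183) had 37893, 35809 and 35269 bp in cKO replicates 1 to 3, against 39450, 39629 and 34656 bp in WT replicates 1 to 3 (log2 difference -0.06 ± 0.11, SE, limma adjusted p = 0.890). Its longest site (chr19:7146582-7154767) held 7225, 7996 and 6418 bp in cKO, against 6514, 5742 and 6784 bp in WT. The window of Flrt1 had 24 sites, 15 of them in all 6 lists (62.5%, against 46.4% of all sites). Of these 24, 2 were lower in every cKO library, as were 5.79% of all sites tested, and neither passed the test. Flrt3 (chr2:140658198-140671476) had a single site (chr2:140663334-140671829), which spanned the start printed above and most of the gene. That site held 6876, 6148 and 7231 bp in cKO, against 7214, 5189 and 8078 bp in WT (log2 difference of the window 0.00 ± 0.13, SE, limma adjusted p = 0.994). The promoter with few CG was thus covered by a broad site with a -log10 q of 28.4 to 38.2 over the 6 lists.

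Flrt2 (chr12:95692006-95785215) was higher in scaled covered length and lower in number of peaks in cKO, without overlap in either measure. Unscaled, its covered length was 12586, 12678 and 11523 bp in cKO replicates 1 to 3, against 13142, 14656 and 8945 bp in WT replicates 1 to 3. These unscaled values overlapped, with a log2 difference of 0.029. Scaled covered length was 12562, 13025 and 13189 bp in cKO replicates 1 to 3, against 11481, 11578 and 12079 bp in WT replicates 1 to 3. The means were 12925 ± 325 bp in cKO and 11713 ± 321 bp in WT (SD, n = 3 each), and the log2 difference was 0.14 ± 0.11 (SE, limma adjusted p = 0.741). The cKO lists had 3 peaks each, against 7, 6 and 4 peaks in WT replicates 1 to 3. Scaled, these were 3.15 ± 0.128 peaks in cKO and 5.40 ± 0.848 in WT (SD, n = 3 each), with a log2 difference of -0.68 ± 0.16 (SE, limma adjusted p = 0.110).

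The sites of Flrt2 show where the measures part. The broad site over the start printed above (chr12:95690698-95700400) made up 64.3% to 86.1% of the covered length and held 9388, 8556 and 9581 bp in cKO, against 8093, 7450 and 10405 bp in WT. The site 46.7 kb downstream (chr12:95737383-95740532) was higher in every cKO library, with 2423, 3228 and 2616 bp in cKO, against 1298, 1970 and 386 bp in WT, and did not pass the test (log2 difference 1.34 ± 0.44, SE, limma adjusted p = 0.503). The site 70.1 kb downstream (chr12:95761979-95762574) was listed at 0 in all cKO libraries, had 498, 427 and 623 bp in WT replicates 1 to 3 and passed (limma adjusted p = 0.00907). This site entered the test through its WT values alone and so had to differ, and with a replicate block it did not pass (limma adjusted p = 0.0691). Its -log10 q was 4.52, 5.60 and 3.83 in the WT lists, and it remained in all 3 WT lists and no cKO list when the lists were cut to equal length. A further pair of sites, with 252, 280 and 0 bp and with 254, 427 and 0 bp in WT replicates 1 to 3, was at 0 in cKO. The covered length of Flrt2 was thus spread over fewer sites in cKO than in WT.

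**Figure D5:**
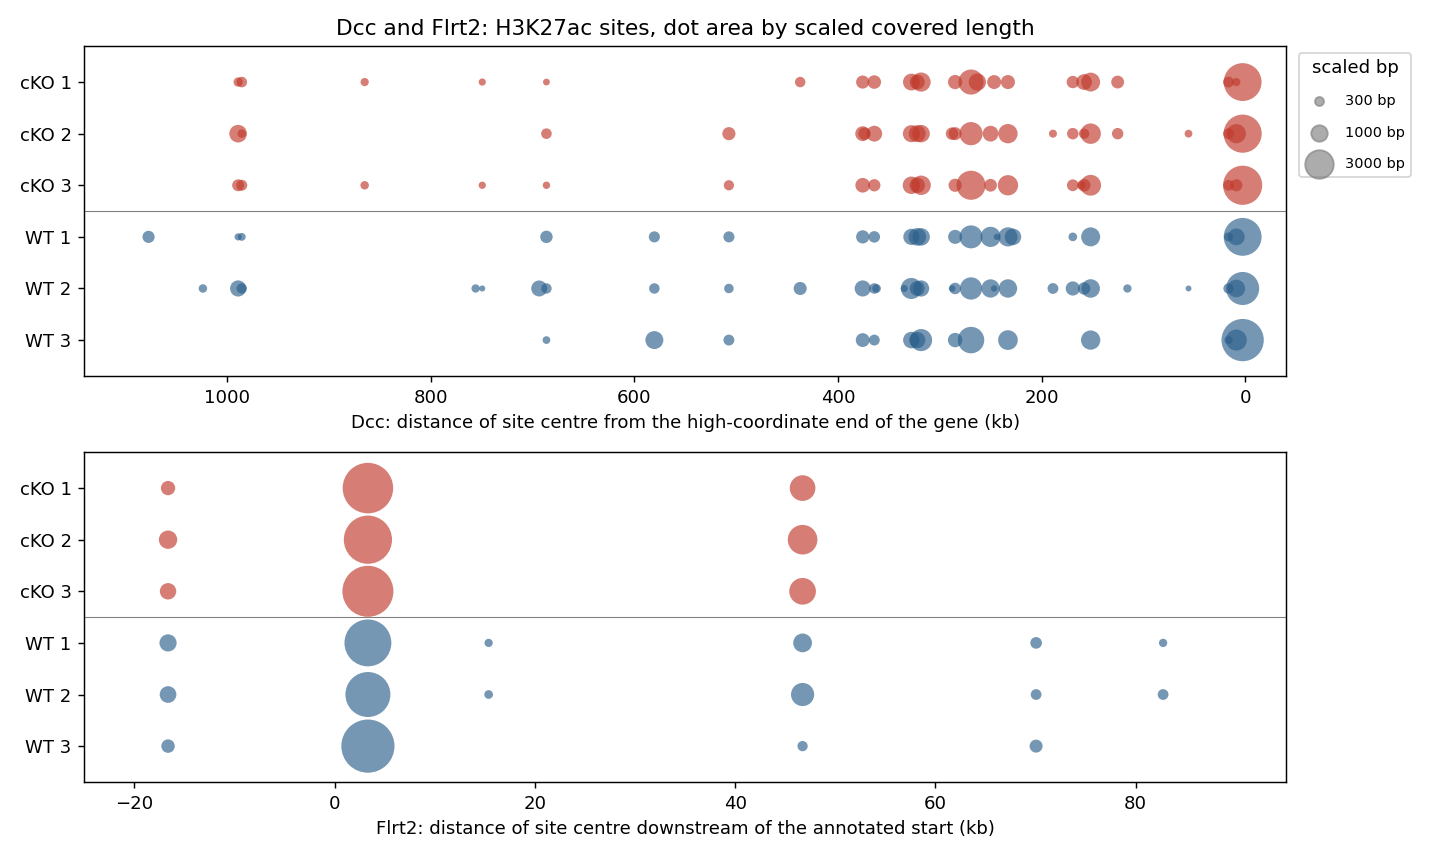
Sites of Dcc by distance of the site's centre below the high-coordinate end of the gene and of Flrt2 by distance downstream of the annotated start, both in kb, with the 3 cKO libraries above and the 3 WT libraries below in each panel. Dot area is proportional to scaled covered length in bp, and a missing dot means no peak. The Dcc site at 580 kb and the Flrt2 site at 70.1 kb have dots in WT libraries alone.

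Over all 10 windows there were 134 sites, of which 114 lay inside the member gene. A peak in all 6 lists was found at 60 of them (44.8%), against 46.4% of all 85907 sites. The sites with a peak in all 3 WT lists and no cKO list numbered 3, those of Unc5d, Dcc and Flrt2 described above, and none had a peak in all 3 cKO lists and no WT list. Over all sites these patterns made up 0.907% and 0.347%. Of the 84 sites tested, 2 passed (the Dcc and Flrt2 sites at 0 in cKO), both lower in cKO, where 0.7% of all sites passed in that direction and 0.295% as higher, and 15 had an unadjusted p below 0.05, against 9.5% of all sites. Without overlap, 8 of the 84 were higher and 9 lower in cKO, against 7.98% and 5.79% of all sites tested. The 9 include both called sites. Both called sites entered the test through their WT values alone and so had to differ. The same holds for a further pair of the 15, also at 0 in cKO. That pair lay at Unc5b (chr10:60804433-60805242) and Flrt1 (chr19:7072129-7074451). The count of 2 called sites moved with single libraries, and so did the share of all sites that passed. Without cKO replicate 1, cKO replicate 2 or WT replicate 1 it was 0, as was the count over all sites. Without WT replicate 2 it was 1 (0.578% of all sites), without cKO replicate 3 it was 8 (2.71% of all sites), and without WT replicate 3 it was 5 (2.76% of all sites). Without WT replicate 3, the sites in all remaining WT lists and no cKO list numbered 10, and they made up 5.23% of all sites. The sites in all remaining cKO lists and no WT list numbered 3 without WT replicate 2 (1.18% of all sites), and 1 without cKO replicate 2 or cKO replicate 3 (0.56% and 0.755% of all sites).

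The other genes of the netrin pathway showed no call in either direction by covered length. Over all genes tested 0.69% were called, 9.95% had an unadjusted p below 0.05, and 7.08% were higher and 4.54% lower in every cKO library, and the counts of the 3 lists below are read against these shares. Of 10 extracellular partners, 9 were tested, 5 were positive and 4 negative with a median log2 difference of 0.10, and 2 had an unadjusted p below 0.05. Rgma, a repulsive ligand of neogenin, came nearest to the threshold. It had 33391, 36991 and 31495 bp in cKO replicates 1 to 3, against 23894, 23904 and 24192 bp in WT replicates 1 to 3, so every cKO library was higher (log2 difference 0.49 ± 0.11, SE, limma adjusted p = 0.0748). Ntn4, a netrin of basement membranes, was lower in every cKO library, with 11956, 10595 and 10490 bp in cKO, against 13930, 12876 and 13365 bp in WT (log2 difference -0.27 ± 0.11, SE, limma adjusted p = 0.414). Draxin, a secreted ligand of Dcc, averaged 19194 ± 274 bp in cKO and 17118 ± 1847 bp in WT (SD, n = 3 each), with overlapping groups.

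All 10 receptors and co-receptors listed were tested, with 6 positive and 4 negative, a median log2 difference of 0.02 and an unadjusted p below 0.05 in 2. Dscaml1, a relative of the netrin receptor DSCAM, averaged 42837 ± 2209 bp in cKO and 52442 ± 4107 bp in WT (SD, n = 3 each, log2 difference -0.29, limma adjusted p = 0.391). Adora2b, an adenosine receptor reported to bind netrin-1, averaged 4215 ± 370 bp in cKO and 3259 ± 385 bp in WT (SD, n = 3 each, log2 difference 0.33, limma adjusted p = 0.323). Adgrl1, a latrophilin, averaged 7711 ± 529 bp in cKO and 7002 ± 1113 bp in WT (SD, n = 3 each, log2 difference 0.14, limma adjusted p = 0.800). The first was lower and the second higher in every cKO library, and Adgrl1 overlapped.

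Of the 23 cytoplasmic effectors all were tested, with 13 positive and 10 negative, a median log2 difference of 0.01 and an unadjusted p below 0.05 in 5. Siah1a, a ubiquitin ligase that acts on DCC, averaged 11305 ± 1548 bp in cKO and 8462 ± 973 bp in WT (SD, n = 3 each, log2 difference 0.40, limma adjusted p = 0.269). Trio, an exchange factor for Rac, averaged 41109 ± 2780 bp in cKO and 34106 ± 3818 bp in WT (SD, n = 3 each, log2 difference 0.27, limma adjusted p = 0.407). Nck2, an adaptor, averaged 15059 ± 3416 bp in cKO and 18236 ± 2677 bp in WT (SD, n = 3 each, log2 difference -0.28, limma adjusted p = 0.423). Siah1a and Trio were higher in every cKO library, while the groups overlapped for Nck2.

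The genes whose log2 covered length followed that of Unc5d most closely over the 6 lists were Gde1 (Pearson r = 0.992), Ifih1 (r = 0.990), Cpa1 (r = 0.989), Tpcn2 (r = 0.986) and Pde4d (r = 0.985). With only 6 lists, 112 of 15358 genes had an r above 0.9, and the genotype difference is part of each r. Cpa1 had a log2 difference of about the same size as Unc5d, at -0.65 (limma adjusted p = 0.0517), and Pde4d one of -0.09 (limma adjusted p = 0.840).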

How the data were processed

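Digestion was of native chromatin, per the labels' protocols; library amplification took 11 PCR cycles and fragments of 100 to 800 bp were kept. FastQC, cutadapt, Bowtie2 2.2.8, MACS2 2.1.1 and mm10 are named in the submitters' processing notes, with their settings and controls unstated. The deposited broad peak lists give positions and, as the authors' values, a display score (not used), a fold ratio and -log10 p and q, used to describe, rank or filter peaks within a list.

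Gene bodies were those of a RefSeq table (GRCm38.p6) without exons or strand. Bases under peaks were scaled to the mean list total, peak numbers to the mean list length. Tests used limma 3.58.1 in R 4.3.3 with library identifier as covariate: covered length plus 500 bp (mean of at least 1000 bp), peak number plus 0.5 (mean of at least 2) and covered length per merged site plus 100 bp (mean of at least 200 bp), with Benjamini-Hochberg adjustment over all features and calls at an adjusted p below 0.05. Counts of non-overlapping groups and of sites by list carry no test, since 3 against 3 libraries cannot go below an exact p of 0.1. Python 3.11.15, numpy 2.4.6 and pandas 2.3.3 did the rest, and scripts were tested on simulated data. Deviations of same-numbered libraries correlated at 0.132, 0.0629 and 0.261, and those of differently numbered ones at -0.225 to 0.167. The numbers were not taken to pair the libraries. These values do not exclude a pairing, and fits with a replicate block are given below. All 10 members were named; of each pathway list (ligands, receptors, effectors) the 3 genes with the smallest p; every Unc5d site; elsewhere sites in 1 genotype only, called, over a start or longest; further sites were chosen after their values were seen. Members and lists were chosen with earlier results of these data known, in which Unc5d had already appeared.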

Additional observations from a re-analysis of the deposited data

How the results depend on the processing

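By covered length, 0 members passed, and this became 1, always Unc5d, with a pseudocount of 2000 bp (adjusted p = 0.0163), with a replicate block (adjusted p = 0.0436; 168 of all genes passed, against 106 without it) and without cKO replicate 1, so that leaving out 1 library gave 0 to 1. The log2 difference of Unc5d kept its sign in all 20 alternatives, between -0.78 and -0.07, and was -0.47 in lists cut to 48160 peaks and -0.66 when scaled to the total over gene windows, a setting chosen after seeing the data. By peak number 0 members passed in all 14 alternatives. Over all genes, the number passing ranged from 1 (without scaling) to 232 (without cKO replicate 1) by covered length, against 106, and from 0 (without cKO replicate 3, WT replicate 1, 2 or 3) to 167 (equal-length lists) by peak number, against 35.

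Small differences in covered length changed sign. Among peaks past a -log10 q of 5, Unc5c was at -0.11, Dcc at -0.032 and Flrt3 at -0.022. In equal-length lists Unc5b was at -0.093, Unc5c at -0.22, Dcc at -0.065 and Flrt3 at -0.056. Without scaling, Unc5b was at -0.082, Unc5c at -0.0033, Dcc at -0.10, Neo1 at -0.021 and Flrt3 at -0.099. Scaled over gene windows, Unc5b was at -0.0047, Dcc at -0.021 and Flrt3 at -0.022, and with quantile normalization at -0.019, -0.016 and -0.035. Over the gene body alone Unc5b was at -0.21 and Flrt1 at 4.9e-05, with 5 kb added at -0.15 and 0.012, and with 100 kb added Neo1 was at -0.058. In the first library identifier alone Dcc was at -0.017. Leaving out 1 library gave -0.030 to 0.12 for Unc5b, -0.0011 to 0.20 for Unc5c, -0.035 to 0.062 for Dcc, -0.044 to 0.20 for Neo1 and -0.14 to 0.11 for Flrt3. By peak number, the stricter q put Unc5b at 0.27 and Ntn1 at 0.43, equal-length lists put Unc5c at -0.28 and Flrt1 at 0.0064, and leaving out 1 library gave -0.11 to 0.020 for Flrt1. The cause of these changes was not tested.

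The 2 sites called became 1, that of Flrt2, with a pseudocount of 500 bp or without the length filter. They became 0 with the replicate block (limma adjusted p = 0.166 at Dcc and 0.0691 at Flrt2), and 0 to 8 without 1 library. At the stricter q 1 site was called (1.68% of all sites), but it was neither of the 2, which were not tested there. Equal-length lists gave 3 (1.8% of all sites), with the Flrt2 site among them and the Dcc site not tested. None of the 3 sites in all WT and no cKO lists had that pattern at the stricter q, where 1 other site, in Dcc, had it (the count was 3 to 10 without 1 library). The 0 sites of the opposite pattern became 1, in Unc5a, in equal-length lists or when at least 50% of a site had to be covered (0 to 3 without 1 library). Depth cannot be read from peak lists, and an unlisted peak is not absent acetylation.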
